A study of Callithrix jacchus and Rattus norvegicus and Loxodonta africana with 31 samples.

Results

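The nuclear receptor superfamily was followed through 3 deposited expression tables, of the common marmoset (a New World monkey), the rat and a wallaby (a marsupial). Members were the autosomal entries whose gene symbol belongs to the receptor subfamilies NR0 to NR6, including the common names of the HNF4, estrogen, progesterone, vitamin D, thyroid hormone, retinoid and PPAR receptors. The rule used symbols only and no measured value. It did not take in RORB, another receptor of these subfamilies. It found 113 entries of 54059 in the 3 tables, with 23 of 19681 in the marmoset, 46 of 20486 in the rat and 44 of 13892 in the wallaby. In the rat, Nr3c1 stood in 2 entries, so the 46 entries carry 45 symbols, and X-linked Nr0b1 matched by name but was left out.

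The series holds 31 samples of polyadenylated RNA: 14 of the marmoset, 12 of the rat, 2 of the wallaby and 3 elephant fibroblast samples that were not analysed here. The tissues were brain, heart, kidney, liver, testis and ovary in the marmoset and the rat, and liver and testis of a male in the wallaby. No treatment or genetic change is given in the labels, nor are strains or ages. Each somatic tissue of the marmoset and the rat was represented by 1 female and 1 male library, each from a single animal, so sex, animal and library cannot be told apart and a p-value measures the spread between these libraries.

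The brain samples were labelled frontal cortex or cerebellum, but the tables had 1 brain column per sex, which was used as brain. The marmoset testis had 1 column for 3 samples of 2 individuals and is given as the authors' value. The unit is FPKM, which scales the fragments of a gene to its transcript length and to the mapped fragments of the library, and the depth behind the values is unknown. Summed marker levels of brain, heart, kidney and liver were highest in the tissue so labelled, although ALB (albumin) had a listed value of 0 in every liver of the marmoset and the rat, as did FGB (a fibrinogen chain) in the male marmoset liver. The marmoset testis had 1 of 3 germ cell markers at 1 FPKM or more. In the rat brain, 6 cerebellum markers summed to 114 FPKM in the female and 683 FPKM in the male, and 6 neuron and glia markers to 3703 and 1480 FPKM. There, 5 cerebral cortex markers summed to 135 FPKM in the female and 259 FPKM in the male. Those lists therefore differed between the rat brain columns, while in the marmoset cerebellum markers summed to 206 and 243 FPKM.

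Nuclear receptors are transcription factors that bind DNA through a zinc finger domain, and many are switched on by small fat-soluble ligands such as steroids, thyroid hormone, retinoic acid, vitamin D, bile acids and oxysterols. Several bind DNA as a pair with a retinoid X receptor (RXR), while orphan receptors have no settled natural ligand. In the liver, members of the family sense bile acids, cholesterol derivatives, fatty acids and foreign chemicals, and in the kidney the vitamin D and mineralocorticoid receptors act in mineral and salt balance. NR5A1 directs steroid production in the gonads and the adrenal gland.

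The levels covered a wide range. The highest marmoset members by subfamily were NR1I3 (467 FPKM) and HNF4A (89.7 FPKM) in liver, ESR1 (25.1 FPKM) and NR5A2 (17.7 FPKM) in liver and NR4A1 (196 FPKM) in heart. In the rat they were Nr1h3 (182 FPKM), Nr2f6 (135 FPKM) and Nr0b2 (51.0 FPKM) in liver, Esrra (30.8 FPKM) in heart, Nr4a1 (15.1 FPKM) in brain, Nr5a1 (28.9 FPKM) in ovary and Nr6a1 (17.8 FPKM) in testis. Among the entries that carry a symbol, liver thus held the highest value of 4 of the 5 marmoset subfamilies and of 3 of the 7 in the rat. ESRRA, which carries no symbol in the marmoset table, was at 32.1 FPKM in male marmoset heart, above ESR1 in liver. In the marmoset 10 of 23 members (43.5%) were at 1 FPKM or more in all 8 somatic libraries, against 45.2% of all genes, and in the rat 20 of 46 (43.5%) against 39.5%. Rat Nr1h5, Nr2e3 and Pgr stayed under 1 FPKM in every library, as did wallaby ESR2, ESRRB, ESRRG, NR4A3 and RXRG. Levels from different tables were normalized separately.

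**Figure D1:**
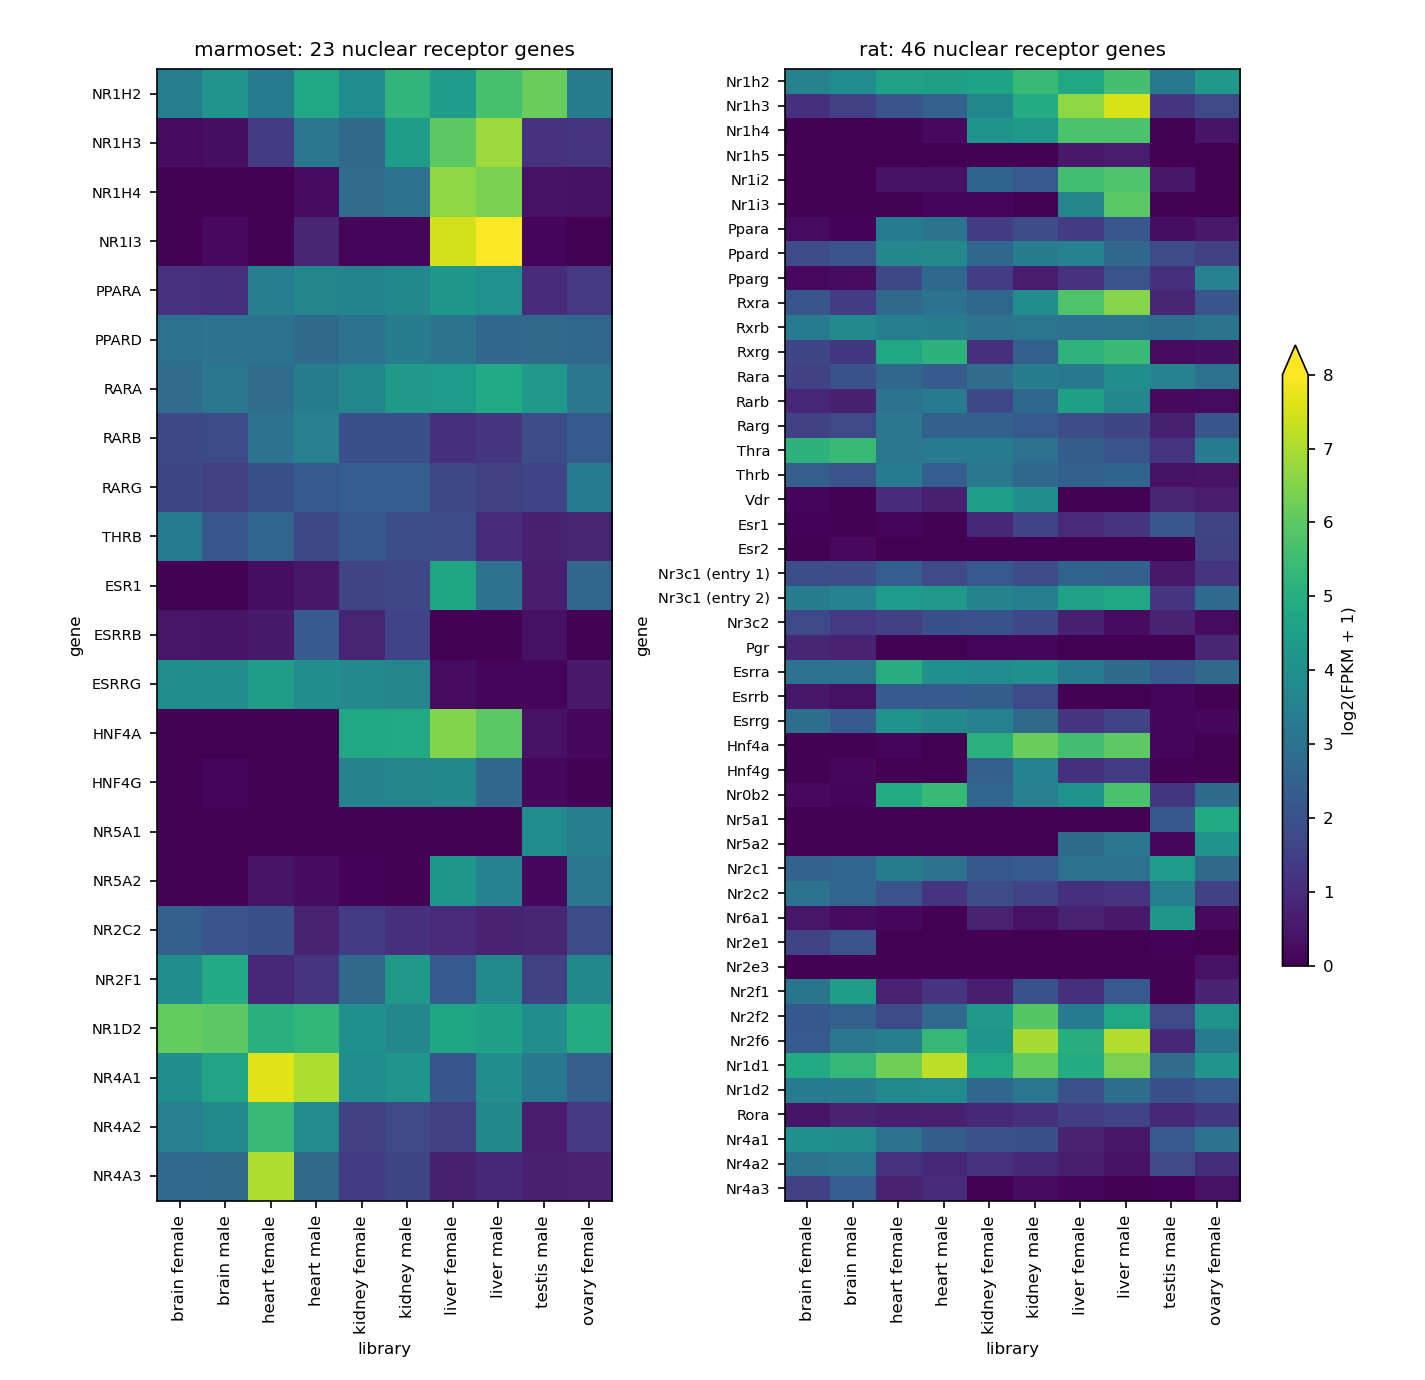
Level of each member, as log2(FPKM + 1) in colour, in the 10 libraries of the marmoset (left, 23 genes) and the rat (right, 46 genes), ordered by role. The liver columns are bright for NR1H3, NR1H4, NR1I3 and HNF4A in both species, at 11.4 FPKM or more, while the brain columns are dark there, at 1.86 FPKM or less.

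Each somatic tissue was set against the mean of the other 3 with limma on log2(FPKM + 1), and a gene was called at a Benjamini-Hochberg adjusted p under 0.05 over all genes tested with a log2 difference of at least 1. In the marmoset 22 of 23 members were tested (NR5A1 was too low) and in the rat 40 of 46. In marmoset liver 9 members (40.9% of those tested) were higher and 3 (13.6%) lower, where 14.7% of all 15100 genes were called higher and 14.3% lower (29.0% in all). In rat liver 11 (27.5% of those tested) were higher and 7 (17.5%) lower, where 18.0% and 18.6% of 14560 genes were (36.6% in all). In marmoset brain 4 (18.2%) were higher and 8 (36.4%) lower, where 15.7% and 21.4% of all genes were (37.1% in all). In rat brain 7 (17.5%) were higher and 18 (45.0%) lower, where 17.3% and 25.7% of all genes were (43.1% in all).

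Scaling the libraries to one upper quartile moved the all-gene median by 0.43 in marmoset brain, 0.41 in rat brain, -0.36 in marmoset liver and -0.34 in rat liver on the log2 scale. Under it the members split into 4 higher and 8 lower in marmoset brain, 7 and 13 in rat brain, 8 and 3 in marmoset liver and 10 and 11 in rat liver. The share of all called genes that were higher moved from 42.3% to 55.2% in marmoset brain, from 40.3% to 56.3% in rat brain, from 50.7% to 38.3% in marmoset liver and from 49.2% to 34.2% in rat liver. As deposited, the members' median difference in rat brain was -0.913, against -0.276 over all genes tested. In the other 3 rat tissues and the 4 marmoset tissues the members' medians lay between -0.446 and 0.286, and the all-gene medians between -0.34 and 0.0633.

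In marmoset heart 3 members were higher and 6 lower (10.2% and 13.8% of all genes, 24.0% in all), and in rat heart 8 and 7 (15.8% and 16.5%, 32.3% in all). In marmoset kidney 2 were higher and 3 lower (10.1% and 7.87%, 18.0% in all), and in rat kidney 6 and 1 (11.0% and 10.6%, 21.6% in all). When kidney and liver together were set against brain and heart, 9 marmoset members were higher and 4 lower (18.5% and 14.0%, 32.6% in all). In the rat 15 were higher and 4 lower (18.4% and 16.6%, 35.0% in all), and under upper-quartile scaling 12 and 9, with the share of all calls that were higher moving from 52.5% to 41.3%. A lower level in a bulk tissue can come from fewer cells of a type or from less RNA per cell, and these cannot be told apart here.

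Receptors for foreign chemicals had the largest liver difference in each species, NR1I3 in the marmoset and Nr1i2 in the rat. NR1I3 (CAR, a sensor of foreign chemicals that switches on detoxifying enzymes) was at 176 FPKM in the female and 467 FPKM in the male marmoset liver. It was at 0, 0 and 0.0689 FPKM in female brain, heart and kidney and at 0.145, 0.825 and 0.0742 FPKM in the male. Both liver libraries thus lay far above every other one, with a log2 difference of 7.96 ± 0.42 (SE, limma adjusted p = 8.3e-05). In the rat, Nr1i3 was at 11.4 and 60.8 FPKM in female and male liver and at 0.112 FPKM or less in the 6 other somatic libraries, a log2 difference of 4.74 ± 0.52 (limma adjusted p = 0.00036). The highest non-liver value, in the male marmoset heart, came from a library in which 6 liver markers summed to 213 FPKM, against 17.0 FPKM in the female heart. In the male kidney, where those markers summed to 299 FPKM, NR1I3 was at 0.0742 FPKM. The 2 sums were made up differently. SERPINC1 and APOA1 were at 117 and 60.3 FPKM in the male kidney and 6.02 and 4.88 FPKM in the male heart. ALB was at 68.4 FPKM in the male kidney and 155 FPKM in the male heart. The part of liver RNA in these NR1I3 values was not tested.

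Nr1i2 (PXR, the related sensor of drugs and steroids) was at 46.6 and 54.6 FPKM in female and male rat liver, at 4.94 and 3.66 FPKM in kidney and at 0.317 FPKM or less in heart and brain. Its groups did not overlap, liver being highest and kidney next (log2 difference in liver 4.75 ± 0.18, limma adjusted p = 2.8e-06).

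NR1H4 (FXR, the bile acid receptor) was at 99.5 and 83.0 FPKM in female and male marmoset liver, at 6.25 and 7.11 FPKM in kidney and at 0.184 FPKM or less in brain and heart. The log2 difference in liver was 5.49 ± 0.20 (limma adjusted p = 2.4e-05). Rat Nr1h4 was at 52.7 and 51.8 FPKM in liver and 16.7 and 19.0 FPKM in kidney, against 0.145 FPKM or less in brain and heart (liver 4.27 ± 0.17, limma adjusted p = 3.6e-06), the same order of tissues. Rat kidney passed on its own as well, at 2.27 ± 0.17 (limma adjusted p = 0.00012), whereas marmoset kidney did not (0.72 ± 0.20, limma adjusted p = 0.052). That difference between the species was not tested.

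NR1H3 (LXR alpha, an oxysterol receptor that drives cholesterol export and fat synthesis) was at 62.0 and 113 FPKM in female and male marmoset liver. Kidney held 5.76 and 21.0 FPKM, heart 1.62 and 8.12 FPKM and brain 0.203 and 0.253 FPKM, so kidney and heart overlapped between the animals while liver and brain stood apart. Rat Nr1h3 was at 99.6 and 182 FPKM in liver, 11.8 and 29.0 FPKM in kidney, 3.35 and 4.66 FPKM in heart and 1.09 and 1.86 FPKM in brain, with no overlap between tissues. The liver differences were 4.34 ± 0.63 (limma adjusted p = 0.0030) and 4.45 ± 0.39 (limma adjusted p = 0.00015). Its paralogue NR1H2 (LXR beta) was present in every somatic library, from 8.52 to 49.7 FPKM in the marmoset and from 10.9 to 49.4 FPKM in the rat somatic libraries. It passed no marmoset test and only the lower call in rat brain (-1.22 ± 0.32, limma adjusted p = 0.015). That call was lost without the female (0.133) or the male brain library (0.0708) and under upper-quartile scaling, where the difference was -0.74.

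Nr0b2 (SHP, an orphan receptor without a DNA-binding domain that represses other receptors in the bile acid feedback loop) was as high in rat heart as in rat liver. It stood at 29.0 and 40.7 FPKM in female and male heart, 16.2 and 51.0 FPKM in liver, 5.11 and 10.2 FPKM in kidney and 0.161 and 0.0726 FPKM in brain. Heart and liver overlapped, and each exceeded the mean of the other 3 tissues (heart 2.44 ± 0.45, limma adjusted p = 0.0040, and liver 2.12 ± 0.45, limma adjusted p = 0.0064). Liver markers summed to 28.7 and 138 FPKM in the female and male rat heart and to 38549 and 50937 FPKM in liver.

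HNF4A and HNF4G, receptors that keep up the gene programmes of liver, kidney and gut epithelium, separated kidney and liver from brain and heart. Marmoset HNF4A was at 26.0 and 28.2 FPKM in female and male kidney and 89.7 and 60.4 FPKM in liver, and at 0.0213 FPKM or less in brain and heart. The difference of kidney and liver from brain and heart was 5.50 ± 0.20 (limma adjusted p = 5.7e-05). Rat Hnf4a was at 33.8 and 71.0 FPKM in kidney and 48.0 and 63.9 FPKM in liver, so these overlapped, against 0.0899 FPKM or less in brain and heart (5.68 ± 0.26, limma adjusted p = 7.6e-06).

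HNF4G was kidney-weighted in the rat, at 4.53 and 10.6 FPKM in kidney against 1.18 and 1.69 FPKM in liver. In the marmoset its kidney (11.0 and 11.5 FPKM) and liver (12.0 and 5.24 FPKM) overlapped. HNF4G was called higher in kidney in both species (2.53 ± 0.29, limma adjusted p = 0.0018 in the marmoset and 2.54 ± 0.27, limma adjusted p = 0.00049 in the rat). In liver it was called higher in the marmoset (1.94 ± 0.29, limma adjusted p = 0.0034) and not in the rat. NR5A2 (LRH-1, which acts on bile acid and steroid genes) was at 17.7 and 10.6 FPKM in marmoset liver and 6.14 and 7.90 FPKM in rat liver, and at 0.351 FPKM or less elsewhere in the somatic tissues. The liver differences were 3.74 ± 0.21 (limma adjusted p = 9.6e-05) and 2.98 ± 0.13 (limma adjusted p = 5.0e-06).

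**Figure D2:**
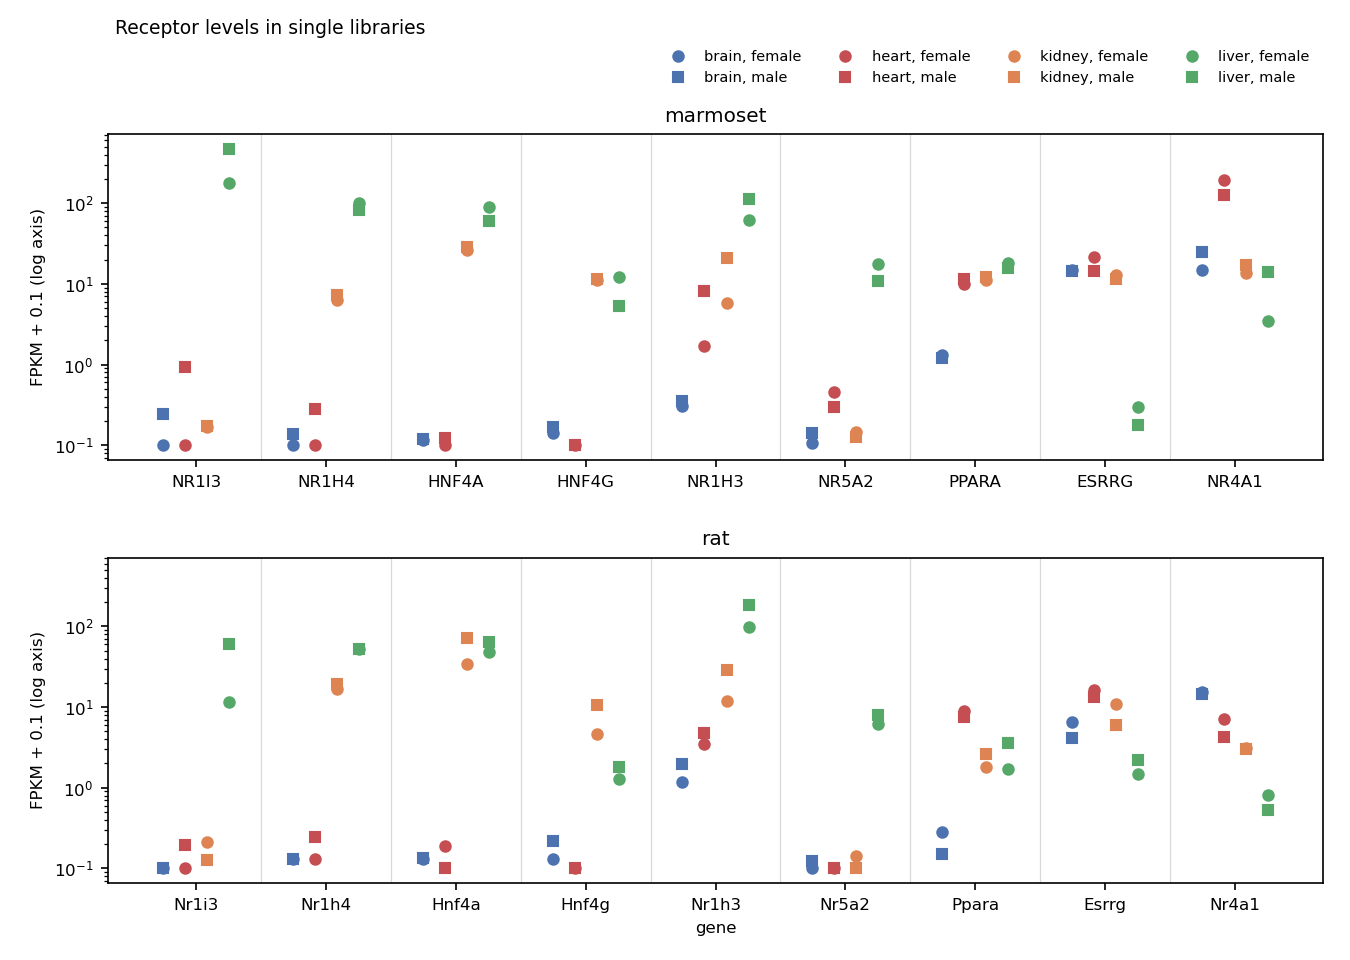
FPKM + 0.1 on a log axis for 9 members in each somatic library of the marmoset (top) and the rat (bottom), with tissue by colour, females as circles and males as squares. NR1I3, NR1H4, NR1H3 and NR5A2 are highest in the liver of both species, and HNF4A lies between 26.0 and 89.7 FPKM in every kidney and liver library.

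The PPAR receptors sense fatty acids and pair with RXR. PPARA (which drives fatty acid burning and ketone production) was at 18.1 and 15.7 FPKM in female and male marmoset liver, 11.1 and 12.0 FPKM in kidney, 9.86 and 11.4 FPKM in heart and 1.20 and 1.12 FPKM in brain. Marmoset liver was highest without overlap (1.39 ± 0.20, limma adjusted p = 0.0029). In the rat, heart was highest at 8.93 and 7.45 FPKM, above liver at 1.60 and 3.47 FPKM and kidney at 1.69 and 2.54 FPKM. The rat heart difference was 2.01 ± 0.25 (limma adjusted p = 0.00071), and the brain was lower in both species.

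Rat Ppard was higher in heart (12.0 and 12.6 FPKM, 1.03 ± 0.31, limma adjusted p = 0.029), and Pparg (the fat cell regulator) as well (2.35 and 5.45 FPKM, 1.26 ± 0.36, limma adjusted p = 0.025). Heart overlapped with liver for Pparg (1.21 and 3.11 FPKM in liver), with 1.75 and 0.56 FPKM in kidney and 0.153 and 0.207 FPKM in brain. The Ppard call was lost without either heart library, either brain library, the female kidney or the male liver library, with values from 0.88 to 1.06, and with upper-quartile scaling (0.96). The Pparg call was lost without the male heart (0.78, adjusted p = 0.211), the female brain (0.0558) or the male brain library (0.0537), and without the filter on low values (0.0504). The 4 fat markers summed to 0.0531 and 0.0752 FPKM in the rat hearts, with PLIN1 listed at 0 in both. The part of fat in the heart Pparg values was not tested.

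The 3 rat RXR receptors had different tissue patterns. Rat Rxra was at 55 and 92.9 FPKM in female and male liver, 5.56 and 14.1 FPKM in kidney, 5.86 and 7.30 FPKM in heart and 3.43 and 1.68 FPKM in brain (liver 3.51 ± 0.39, limma adjusted p = 0.00039). Rxrg shared a high level between rat liver (36.0 and 43.1 FPKM) and heart (27.0 and 35.3 FPKM), with 1.11 and 4.58 FPKM in kidney and 2.17 and 1.47 FPKM in brain. Both liver (2.58 ± 0.37, limma adjusted p = 0.0012) and heart (2.13 ± 0.37, limma adjusted p = 0.0034) passed, and kidney was lower (-2.16 ± 0.37, limma adjusted p = 0.0043). Rxrb stayed between 7.18 and 12.6 FPKM in the 8 somatic libraries and passed no test.

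The receptors for vitamin D, thyroid hormone and retinoic acid followed different tissues. Rat Vdr was at 21.8 and 14.8 FPKM in female and male kidney, and at 1.02 FPKM or less in every other somatic library. It had the largest kidney difference of the rat members (3.91 ± 0.19, limma adjusted p = 1.7e-05). Rat Thra (thyroid hormone receptor alpha) was at 34.9 and 42.0 FPKM in brain and between 3.26 and 8.92 FPKM elsewhere, without overlap (2.44 ± 0.21, limma adjusted p = 9.1e-05), and was lower in liver (-1.66 ± 0.21, limma adjusted p = 0.00074). Thra lies next to Nr1d1 on the opposite strand with overlapping ends, and no label says whether the rat counting used strand, so reads of the pair may not have been told apart. THRB passed no test in either species, at 1.02 to 8.58 FPKM in marmoset and 3.17 to 9.09 FPKM in rat somatic libraries.

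RARB, a retinoic acid receptor, was called in opposite directions in liver. In marmoset liver it was at 1.11 and 1.39 FPKM, below the 7.33 and 10.1 FPKM of heart and the 2.33 to 2.87 FPKM of brain and kidney (liver -1.16 ± 0.20, limma adjusted p = 0.0059). In rat liver it was at 23.0 and 12.4 FPKM, above heart (7.24 and 8.64 FPKM), kidney (2.31 and 5.36 FPKM) and brain (0.915 and 0.681 FPKM), a difference of 2.10 ± 0.33 (limma adjusted p = 0.0017). Marmoset heart passed as higher (1.64 ± 0.20, limma adjusted p = 0.0021). The difference between the species itself was not tested.

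RARA was higher in liver in both species (1.27 ± 0.30, limma adjusted p = 0.018 and 1.11 ± 0.28, limma adjusted p = 0.014). Those calls fell short under upper-quartile scaling (0.85 and 0.72). They were also lost without the male liver library (1.03 with adjusted p = 0.132 in the marmoset, 0.76 with 0.131 in the rat) and, in the marmoset, without the female (0.065) or male brain library (0.0525). RARG passed no test in either species, at 1.87 to 4.25 FPKM in marmoset and 1.90 to 7.96 FPKM in rat somatic libraries.

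Among steroid receptors, marmoset ESR1 (estrogen receptor alpha) was at 25.1 FPKM in the female and 6.83 FPKM in the male liver, at 2.11 and 2.23 FPKM in kidney, 0.228 and 0.419 FPKM in heart and 0.0273 and 0.0276 FPKM in brain. The 4 tissues did not overlap, and liver was called higher (3.14 ± 0.43, limma adjusted p = 0.0023). Brain was called lower (-1.93 ± 0.43, limma adjusted p = 0.013), and no longer passed without the female (0.108) or male brain library (0.0976), with the difference still at -1.93. Where a tissue is left with 1 library, that library is assumed to vary like the other tissues. Heart was called lower as well (-1.45, limma adjusted p = 0.046), which was lost without any 1 of the brain, heart or kidney libraries (-1.55 to -1.34). The heart call was lost too with upper-quartile scaling (limma adjusted p = 0.0861), without the filter on low values (0.0658) and without the variance trend (0.0536). Rat Esr1 did not exceed 2.06 FPKM in somatic tissue. It passed only in kidney and liver against brain and heart (1.09 ± 0.17, limma adjusted p = 0.0014, and 0.99 under upper-quartile scaling).

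The glucocorticoid receptor Nr3c1 stood in 2 rat entries. The higher one was at 23.6 and 26.0 FPKM in liver, 19.9 and 18.6 FPKM in heart, 10.9 and 9.91 FPKM in kidney and 9.26 and 10.8 FPKM in brain, and the lower one between 2.38 and 5.02 FPKM. Neither passed a test, and since reads may have been split between the entries, their levels are uncertain. Rat Nr3c2 (the mineralocorticoid receptor) was lower in liver, at 0.638 and 0.215 FPKM against 1.49 to 3.04 FPKM elsewhere (-1.23 ± 0.22, limma adjusted p = 0.0030).

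Among the estrogen-related receptors, orphan receptors of energy metabolism, the gamma and beta forms had their lowest means in liver. The alpha form was lowest in rat brain and liver, which overlapped. Marmoset ESRRG was at 0.2 and 0.0778 FPKM in female and male liver and between 11.4 and 21.3 FPKM in brain, heart and kidney (liver -3.77 ± 0.23, limma adjusted p = 0.00015). Rat Esrrg was at 1.39 and 2.08 FPKM in liver, below the 4.01 to 16.3 FPKM of the other tissues (-1.80 ± 0.28, limma adjusted p = 0.0018). Heart was above the mean of the other 3 tissues in both species (1.59 ± 0.23, limma adjusted p = 0.0039 and 1.57 ± 0.28, limma adjusted p = 0.0039). In the marmoset, heart (21.3 and 14.2 FPKM) overlapped with brain (14.7 and 14.5 FPKM). Marmoset brain was called higher for ESRRG too, a call lost without the female (1.26) or male brain library (1.28). Esrrb was listed at 0 in all 4 livers of the marmoset and the rat. In the rat it was higher in heart (4.03 and 3.84 FPKM, 1.46 ± 0.18, limma adjusted p = 0.00075) and in kidney (4.16 and 2.46 FPKM, 1.16 ± 0.18, limma adjusted p = 0.0028), the latter falling to 0.87 without the female kidney library. Rat Esrra was higher in heart (30.8 and 15 FPKM, 1.17 ± 0.30, limma adjusted p = 0.016), which was lost without the female heart library (0.67, adjusted p = 0.129). It was at 8.53 and 6.12 FPKM in liver, level with the 6.95 and 6.97 FPKM of brain and below the 13.7 and 15.2 FPKM of kidney.

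Among the members called higher in brain were receptors of neural development. Rat Nr2e1 (TLX, a receptor of neural stem cells) was at 2.09 and 3.14 FPKM in female and male brain and listed at 0 in the 6 other somatic libraries (1.84 ± 0.13, limma adjusted p = 3.7e-05). NR2F1 (COUP-TFI, which patterns the cortex) was at 14.7 and 28.9 FPKM in marmoset brain, 5.83 and 18.8 FPKM in kidney, 3.83 and 13.1 FPKM in liver and 0.846 and 1.35 FPKM in heart. Its brain values overlapped with kidney, and the male was above the female in every tissue. In rat brain Nr2f1 was at 7.62 and 21.6 FPKM, against 0.610 to 3.75 FPKM elsewhere.

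The brain calls for NR2F1 were 1.89 ± 0.58 (limma adjusted p = 0.040) in the marmoset and 2.46 ± 0.52 (limma adjusted p = 0.0061) in the rat. The rat call was lost without the male brain library (1.76), the one with the higher cerebellum and cerebral cortex marker sums. The part of those marker differences in the result was not tested. The marmoset call was lost without the female brain (2.35, adjusted p = 0.112), male brain (1.43, 0.252), female heart (1.83, 0.0651), male heart (1.95, 0.0612), female kidney (1.64, 0.0584) or female liver library (1.63, 0.0532), and without the filter on low values (0.0554). Marmoset heart was called lower for NR2F1 (-2.62, limma adjusted p = 0.018), which was lost without the female heart (-2.44, 0.1), male heart (-2.79, 0.0679) or male brain library (-2.46, 0.0509). NR2C2 (TR4, an orphan receptor) was at 4.52 and 3.27 FPKM in marmoset and 7.20 and 5.06 FPKM in rat brain (1.12 ± 0.33, limma adjusted p = 0.034 and 1.31 ± 0.27, limma adjusted p = 0.0051). The rat call was lost without the female brain library (1.09, 0.0633), and the marmoset call without any of 7 libraries, with values from 0.93 to 1.31.

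The COUP relatives Nr2f2 and Nr2f6 had their highest rat means in kidney and liver. Nr2f2 was at 18.9 and 57.9 FPKM in female and male kidney, 8.67 and 26.3 FPKM in liver, 2.51 and 5.67 FPKM in heart and 3.64 and 4.45 FPKM in brain. Kidney passed (2.22 ± 0.54, limma adjusted p = 0.019) but not without the male kidney (1.44, 0.152) or the female brain library (2.18, 0.0511). Nr2f6 (EAR2) was at 17.6 and 123 FPKM in kidney, 30.7 and 135 FPKM in liver, 9.76 and 39.6 FPKM in heart and 3.80 and 8.08 FPKM in brain. The male exceeded the female in all 4 tissues. Without the animal as a term, neither liver (1.80, limma adjusted p = 0.131) nor kidney (1.21, limma adjusted p = 0.388) passed, while with it both did (0.0041 and 0.033). Brain was called lower for Nr2f6 (-2.61, limma adjusted p = 0.042), and that call was lost without the female brain (-2.15, 0.234), male brain (-3.07, 0.111), male heart (-2.29, 0.0796) or male liver library (-2.26, 0.0692). It was lost as well with upper-quartile scaling (-2.15, 0.0557) and without the filter on low values (0.0769).

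**Figure D3:**
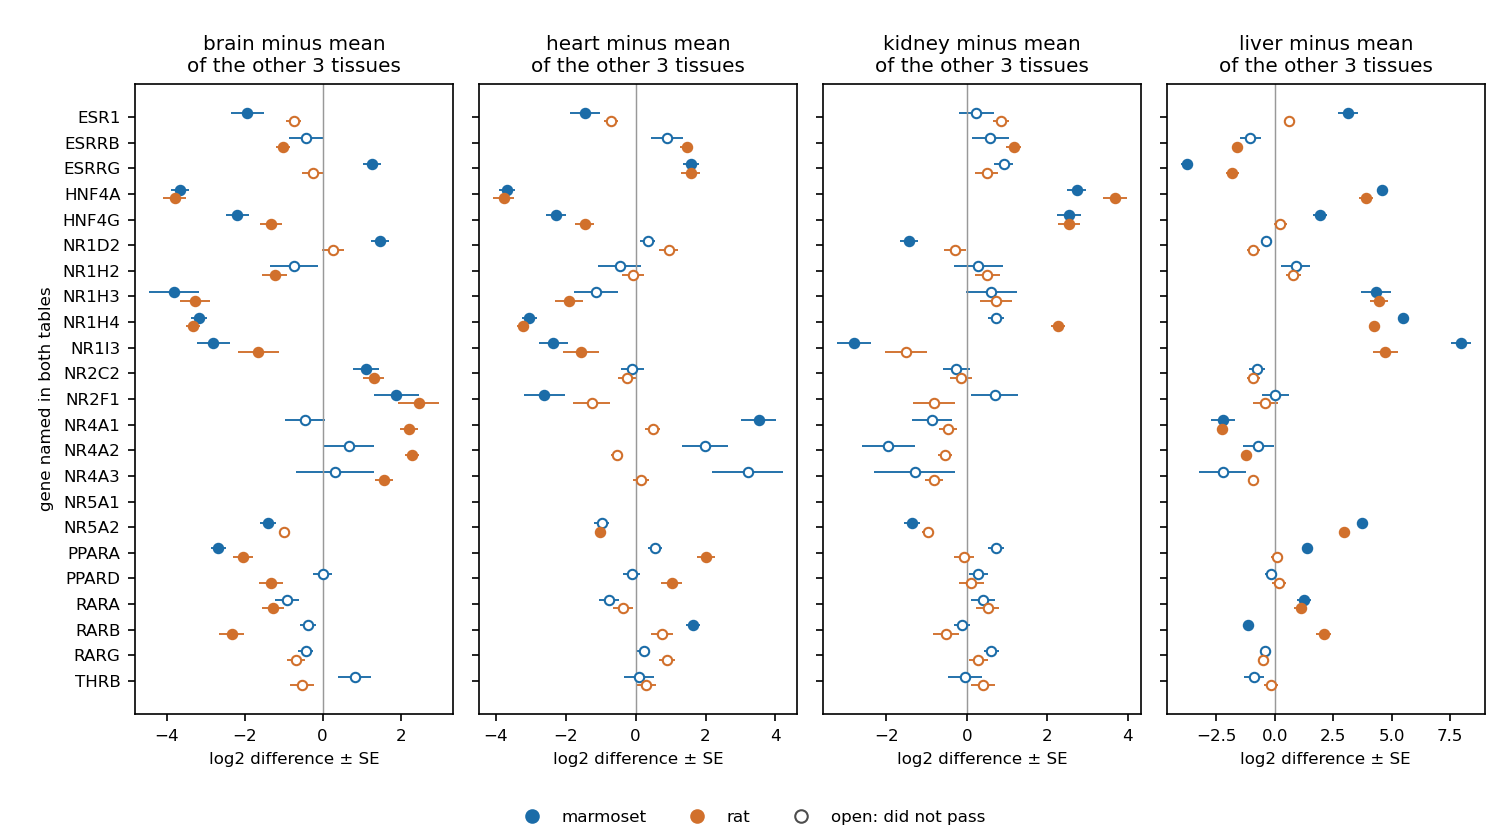
Log2 difference of each tissue from the mean of the other 3, with its standard error, for the genes named in both the marmoset (blue) and the rat (orange) table. Filled points passed the test and open points did not. NR1H3 in liver lies at a similar place in both species, while NR1H4 in kidney passed in the rat only. RARB in liver lies at -1.16 in the marmoset and 2.10 in the rat. NR5A1 was not tested.

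The NR4A receptors, which are switched on soon after a stimulus and need no ligand, had their highest means in different tissues in the 2 species, heart in the marmoset and brain in the rat. Marmoset NR4A1 was at 196 and 128 FPKM in female and male heart, 14.9 and 24.7 FPKM in brain, 13.7 and 17.1 FPKM in kidney and 3.39 and 14.1 FPKM in liver. Heart did not overlap with any other tissue (3.52 ± 0.51, limma adjusted p = 0.0036). In the rat, brain led at 15.1 and 14.5 FPKM, followed by heart (7.06 and 4.16 FPKM), kidney (2.99 and 2.89 FPKM) and liver (0.707 and 0.424 FPKM), again without overlap (brain 2.21 ± 0.22, limma adjusted p = 0.00017). Liver was lower in both species (-2.20 ± 0.51, limma adjusted p = 0.017 and -2.24 ± 0.22, limma adjusted p = 0.00023), the marmoset call being lost without the female liver library (-1.31, 0.0792).

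Rat Nr4a2 (NURR1, required for dopamine neurons) was at 7.50 and 8.13 FPKM in brain against 1.26 FPKM or less elsewhere (2.28 ± 0.18, limma adjusted p = 4.7e-05), and Nr4a3 at 1.88 and 4.21 FPKM against 1.02 FPKM or less (1.58 ± 0.23, limma adjusted p = 0.0010). In marmoset heart NR4A3 was at 132 FPKM in the female and 5.80 FPKM in the male, and NR4A2 at 41.3 and 13.5 FPKM. The female heart stood apart for NR4A3, while the male heart was level with the brain (5.64 and 5.80 FPKM). Neither gene passed in marmoset heart (3.20 with limma adjusted p = 0.055 and 1.98 with 0.065), but both did with the animal as a term (0.024 and 0.037).

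Of the clock receptors, which repress or activate genes in the daily rhythm, marmoset NR1D2 (REV-ERB beta) was at 66.8 and 62.3 FPKM in female and male brain, 32.9 and 38.5 FPKM in heart, 25.8 and 22.9 FPKM in liver and 15.2 and 12.1 FPKM in kidney. The 4 tissues did not overlap. Brain was higher (1.46 ± 0.23, limma adjusted p = 0.0030) and kidney lower (-1.43 ± 0.23, limma adjusted p = 0.0058). Without the female or the male brain library the brain difference was 1.41 or 1.51 and no longer passed (0.0696 and 0.0524), and the kidney call without the male kidney library (-1.28, 0.0842). Rat Nr1d2 passed no test, at 2.99 to 13.5 FPKM. Rat Nr1d1 (REV-ERB alpha) was lower in the female than in the male in each tissue, at 28.7 and 38.8 FPKM in brain, 74.2 and 145 FPKM in heart, 26.5 and 67.0 FPKM in kidney and 29.3 and 82.2 FPKM in liver. Its heart difference of 1.32 passed only with the animal as a term (limma adjusted p = 0.076 without it and 0.0053 with it). Rat Rora reached 2.02 FPKM at most.

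Each gonad was a single library (or, for marmoset testis, 1 value for 3 samples), so the gonads were compared by size only. A member was counted where it lay at least 2 log2 units above the highest or below the lowest of the 8 somatic libraries. NR5A1 (SF-1, the regulator of steroid-making cells) was the only member above that size in marmoset testis (3.73% of all genes were, with 0.458% below and 4.19% in all), in marmoset ovary (0.602%, with 0.0807% below and 0.683% in all) and in rat ovary (0.635%, with 0.0254% below and 0.660% in all). In rat testis it was joined by Nr6a1 (12.0% of all genes, with 0.866% below and 12.9% in all).

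NR5A1 was at 13.8 FPKM in marmoset testis and 9.96 FPKM in ovary, and at 0.0439 FPKM or less in somatic tissue. In the rat it was at 3.59 FPKM in testis and 28.9 FPKM in ovary, and at 0.0241 FPKM or less in somatic tissue. Above the highest somatic library, testis and ovary stood at 3.82 and 3.39 log2 units in the marmoset and 2.16 and 4.87 in the rat. Each is 1 value, and a difference between the gonads or between the species was not tested. Leydig cell markers, which include genes also expressed in the ovary, summed to 472 and 231 FPKM in marmoset testis and ovary and to 282 and 2051 FPKM in rat testis and ovary. Their part in the NR5A1 levels was not tested.

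Nr6a1 (GCNF, a receptor of germ cells) was at 17.8 FPKM in rat testis and at 0.718 FPKM or less in the somatic libraries, with 0.163 FPKM in ovary. The orphan receptors of the NR2C pair had their highest rat value in testis without reaching the size asked: Nr2c1 at 20.0 FPKM (9.16 FPKM or less in somatic tissue) and Nr2c2 at 10.0 FPKM (7.20 FPKM or less). Germ cell markers summed to 13147 FPKM in rat testis. In marmoset testis the 3 germ cell markers in the table summed to 30.4 FPKM, with 1 of 3 at 1 FPKM or more, 5 epididymis markers summed to 343 FPKM, of which DEFB129 gave 342 FPKM and the other 4 were under 1 FPKM each, and NR2C2 was at 0.826 FPKM. How far the cell makeup of the testis samples bears on these receptors was not tested. The higher Nr3c1 entry was the only member below every rat somatic library by that size in testis, at 1.38 FPKM (0.866% of all genes).

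Further receptors were high in an ovary without being past the threshold. Rat Nr5a2 was at 16.7 FPKM in ovary, above the 6.14 and 7.90 FPKM of liver, and marmoset NR5A2 at 7.77 FPKM, below its liver. Rat Pparg was at 10.8 FPKM in ovary, above its highest somatic value of 5.45 FPKM, in a library where 4 fat markers summed to 34.2 FPKM; the part of fat in it was not tested. Marmoset RARG was at 8.92 FPKM in ovary and 4.25 FPKM or less in somatic tissue. Rat Esr2 (estrogen receptor beta) was at 1.93 FPKM in ovary and 0.140 FPKM or less elsewhere.

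**Figure D4:**
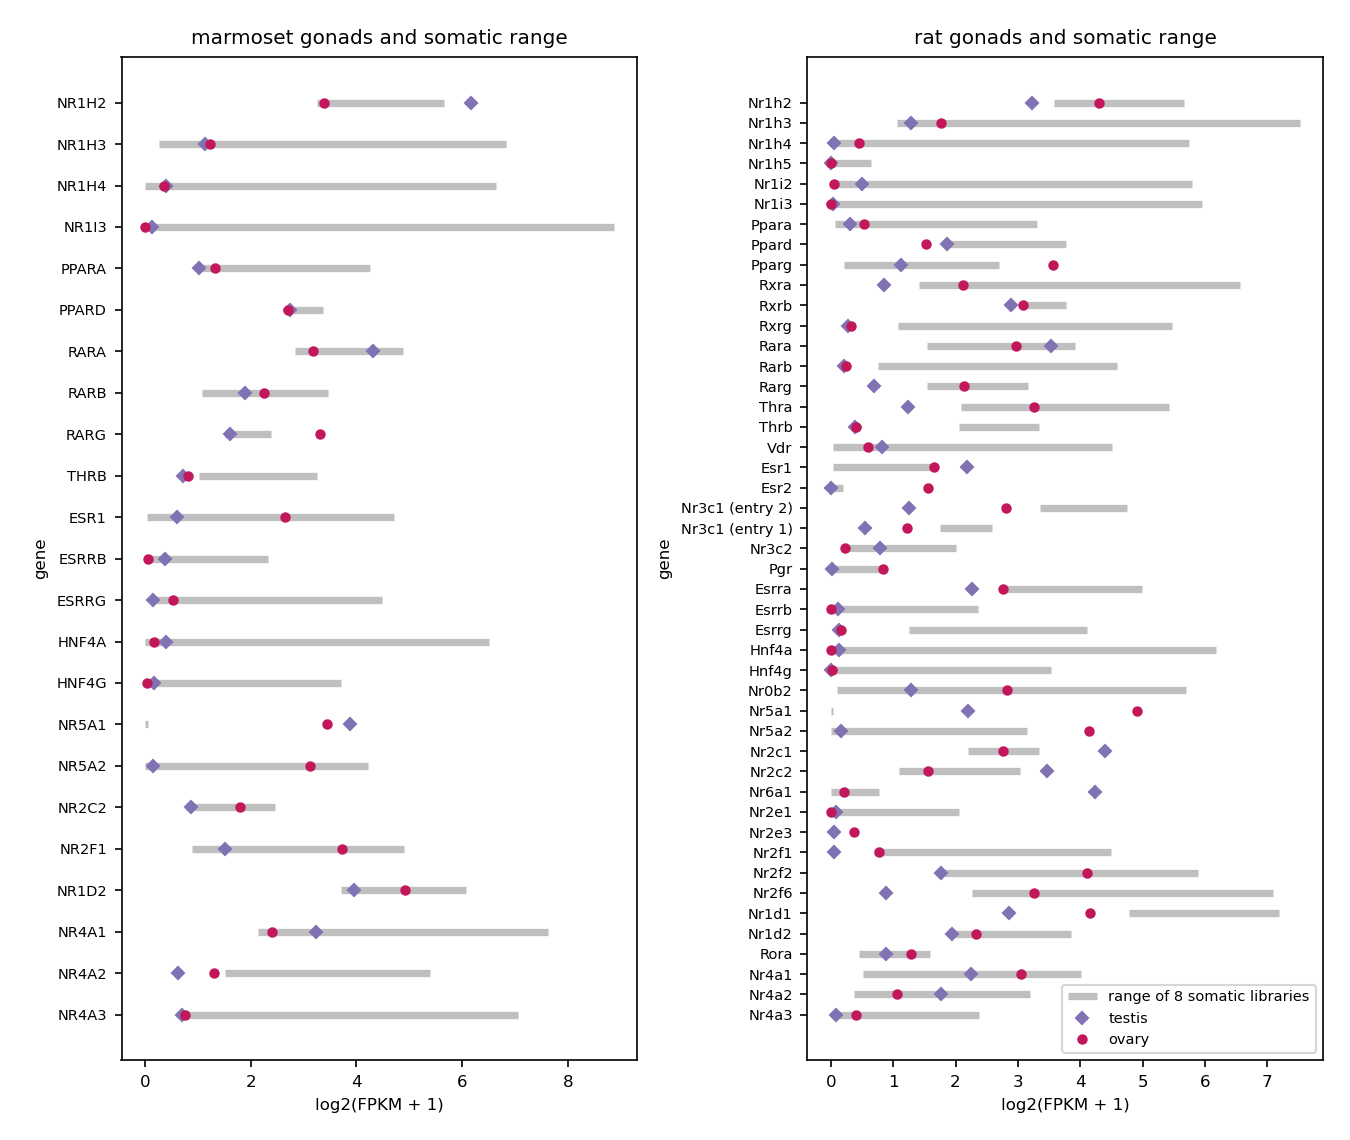
Testis (diamond) and ovary (circle) values of each member as log2(FPKM + 1), against the range of the 8 somatic libraries (grey bar), in the marmoset (left) and the rat (right). NR5A1 lies outside its somatic range in both gonads of both species, and Nr6a1 lies at 17.8 FPKM in rat testis.

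In the wallaby a single liver was set against a single testis of a male, with no test, and a difference of 2 on the log2 scale was asked for. Of 44 members, 39 reached 1 FPKM in either library, 24 were lower in testis (29.2% of all genes were) and 1 was higher (13.6%, 42.7% in all). With upper-quartile scaling 17 members passed in all, against 25 as deposited, and 4389 of all genes against 4902. The largest differences were those of NR0B2 and of receptors for bile acids, oxysterols and foreign chemicals. NR0B2 was at 108 FPKM in liver and 0.0431 FPKM in testis, NR1H3 at 61.0 and 0.135 FPKM, NR1I3 at 63.4 and 0.432 FPKM and NR1I2 at 34.0 and 0.0105 FPKM. NR1H4 was at 32.3 FPKM in liver and listed at 0 in testis.

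HNF4A was at 101 FPKM in wallaby liver and 2.61 FPKM in testis, RXRA at 29.1 and 0.565 FPKM and NR3C1 at 22.6 and 0.344 FPKM. PPARA, at 52.5 and 4.67 FPKM, was the highest PPAR in wallaby liver, and RARA, at 46.0 and 5.41 FPKM, the highest retinoic acid receptor.

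The only wallaby member higher in testis by that size was PGR (progesterone receptor), at 34.3 FPKM in testis and 0.341 FPKM in liver. In rat testis Pgr was at 0.0121 FPKM. NR5A1 was at 1.97 FPKM in wallaby testis and listed at 0 in liver, and NR6A1 at 1.35 and 2.88 FPKM, so the testis-led pattern of rat Nr6a1 was not seen there. NR3C2 was at 6.99 FPKM in testis and 2.14 FPKM in liver. Male germ cell markers summed to 83535 FPKM in the wallaby testis and to 94.8 FPKM in the liver, with 4 of 6 at 1 FPKM or more in the liver, and their part in the liver values was not tested. NR0B1 (DAX1), which is on an autosome in this table, was at 1.68 FPKM in testis and 0.774 FPKM in liver.

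**Figure D5:**
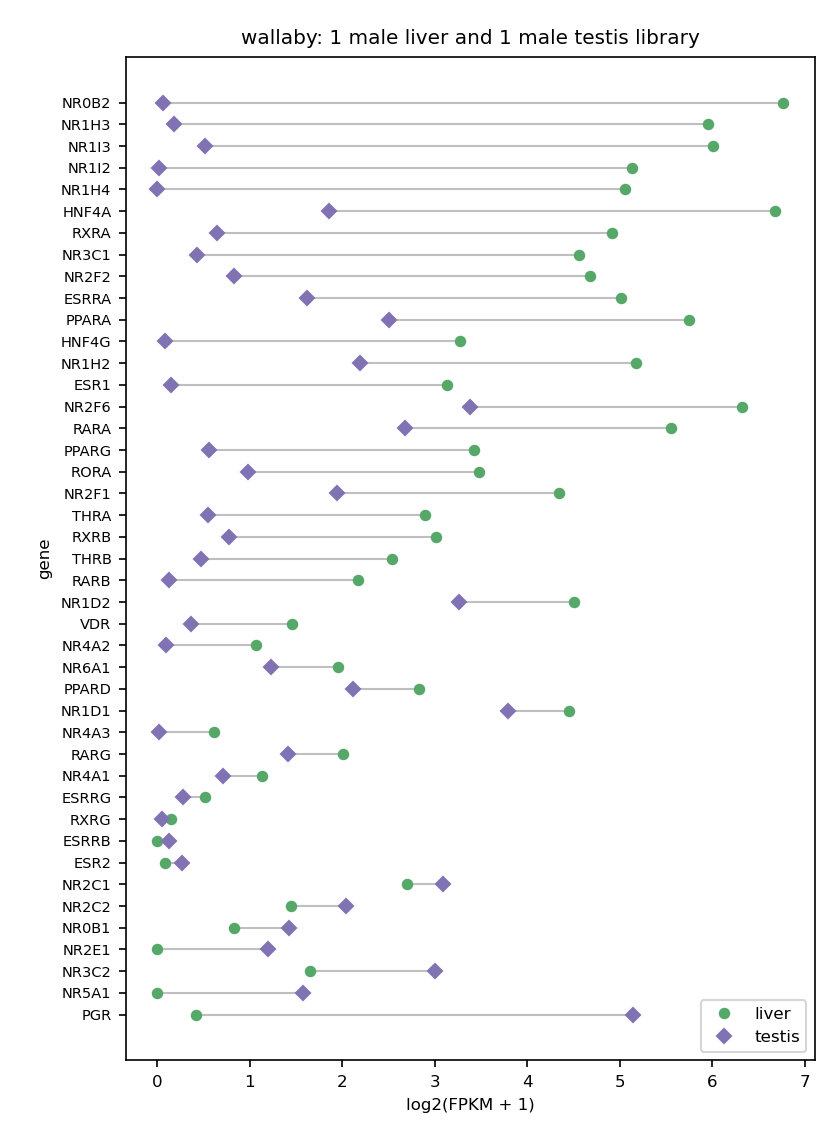
Level of the wallaby members, apart from 1 that is not reported here, as log2(FPKM + 1) in liver (circle) and testis (diamond), sorted by the difference. NR0B2 shows the largest difference in favour of liver, 108 against 0.0431 FPKM, and PGR the largest difference in favour of testis, 34.3 against 0.341 FPKM.

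The tissue with the highest mean was compared between the marmoset and the rat for genes matched by symbol and at 1 FPKM or more in both. It was the same for 12 of 22 members (54.5%) and for 60.5% of 9172 genes, so the members lay near the share of all genes. The 10 that differed were ESR1, NR1D2, NR4A1, NR4A2, NR4A3, PPARA, PPARD, RARB, RARG and THRB. Among them were all 3 NR4A receptors, led by heart in the marmoset and by brain in the rat. NR1H2, NR1H3, NR1H4, NR1I3, HNF4A, NR5A2 and RARA had their highest mean in liver in both. Liver libraries overlapped with kidney for NR1H2 in both species and for Hnf4a and Rara in the rat. Among the genes that differed, the leading tissue overlapped with the next for THRB in both species. The same held for PPARD and NR4A3 in the marmoset and for Esr1 in the rat.

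No member differed between the sexes by 1 log2 unit or more in the same direction in all 4 somatic tissues, in either species, where 2.67% of all marmoset genes and 0.0962% of rat genes were lower in the female by that rule and 0.0331% and 0.0137% higher (2.70% and 0.11% in all). Counting any size, 6 of 22 marmoset members (27.3%) were lower in the female in all 4 tissues, against 37.2% of all genes tested, and 7 of 40 in the rat (17.5%) against 18.0%. Higher in the female throughout were 3 of 22 (13.6%, against 16.8%) and 2 of 40 (5%, against 13.6%). The median absolute log2 difference between female and male over the marmoset members ran from 0.0794 in brain (0.25 over all genes) to 0.526 in liver (0.503). In the rat it ran from 0.195 in brain (0.222 over all genes) to 0.47 in kidney (0.402). Marmoset NR1H2 was among the members lower in the female throughout, at 9.86 and 17.2 FPKM in brain, 8.52 and 26.6 FPKM in heart, 13.8 and 37.3 FPKM in kidney and 20.3 and 49.7 FPKM in liver.

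Genes that work with the receptors were counted in 3 lists. The 15 coregulators, which bind receptors and open or close chromatin, were rarely called. At most 1 was higher and 1 lower in any marmoset tissue, where 18.0% to 37.1% of all genes were called. In the rat, PPARGC1A (PGC-1 alpha, a coactivator of energy metabolism) was the only coregulator called, where 21.6% to 43.1% of all genes were called by tissue. PPARGC1A was higher in heart (6.79 and 6.69 FPKM, 1.23) and kidney (7.69 and 4.83 FPKM, 1.07) and lower in liver (1.04 and 0.311 FPKM, -1.76).

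The enzymes and carriers of receptor ligands varied more. Of 17 in the marmoset table, 12 were higher and 1 lower in kidney and liver against brain and heart (median 2.52, against 0.173 over all genes), and of 20 in the rat 10 were higher and 1 lower (2.04 against 0.0563). In that comparison 18.5% of all marmoset genes were higher and 14.0% lower, and 18.4% and 16.6% of all rat genes. Next to Vdr in the rat kidney stood CYP24A1, which breaks down vitamin D, at 7.44 and 15.6 FPKM in female and male kidney and listed at 0 in brain, heart and liver. CYP27B1 of the same list was only at 0.16 and 0.828 FPKM in female and male rat kidney. HSD11B2, which inactivates glucocorticoids, was at 228 and 660 FPKM in rat kidney and 2.92 FPKM or less in the other somatic libraries.

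Of the genes known as receptor targets, 23 of 33 were higher and 4 lower in marmoset liver (median 2.92, against 0.0633 over all genes) and 22 of 36 higher and 6 lower in rat liver (2.19 against -0.0646). Over all genes 14.7% were higher and 14.3% lower in marmoset liver, and 18.0% and 18.6% in rat liver. CYP7A1, the rate-limiting enzyme of bile acid synthesis, was at 58.3 and 11.8 FPKM in female and male marmoset liver and 102 and 61.1 FPKM in rat liver, and at 0.105 FPKM or less in the other somatic libraries. In kidney 7 targets were higher and 8 lower in the marmoset (median -0.478, against 0.00373 over all genes) and 7 higher and 12 lower in the rat (-0.82 against -0.0721). There 10.1% of all marmoset genes were higher and 7.87% lower, and 11.0% and 10.6% of all rat genes. One of the targets higher in kidney, SLC34A1, a phosphate transporter, was at 784 and 2108 FPKM in marmoset kidney and 389 and 1759 FPKM in rat kidney. Both lists share liver-made and kidney-made genes that many factors regulate, and the part of the receptors in their levels was not tested.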

How the data were processed

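Polyadenylated RNA was sequenced in 31 samples, and TopHat 1.4.0 and Cufflinks 2.0.0 are named in the submitters' processing notes. The values are FPKM deposited by the authors, 1 table per species, further normalized across tissues by a method that, like the genome builds, is not stated in the labels. In all, 8 columns of per-sample values, all 0, were not used. Low values showed no steps of whole reads (at most 0.919% of low genes in the fullest bin), which leaves depth unknown and counting intervals out of reach. A value of exactly 0 may be a failed estimate and is described as listed at 0.

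Brain, heart, kidney and liver (8 libraries per species) entered a linear model of log2(FPKM + 1) with a variance trend (limma 3.58.1, R 4.3.3), a scale that understates changes of low genes. Genes at 1 FPKM or more in at least 2 libraries were tested, without a term for the animal. The female minus male differences of the tissues correlated over genes at 0.541 to 0.716 in the marmoset and 0.143 to 0.506 in the rat, and the labels give 1 individual per sex, so the libraries are paired by animal. Members, gene lists and tests were chosen with earlier results of these data known. Named genes are all members, with values by library for up to 8 called members per comparison by size and for the highest member of each subfamily. Comparisons of single libraries have no test. Alternatives were the pseudocount, upper-quartile scaling, no filter, no variance trend, the animal as a block and leaving out each library. The model was first run on simulated data with independent noise in each library and no shared animal effect, so the pairing was not covered. Values of 1 wallaby member are not reported here, although it is in the counts.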

Additional observations from a re-analysis of the deposited data

Results flagged for a closer look

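RARB, a retinoic acid receptor, was called in opposite directions in the liver of the 2 species set side by side. Its log2 difference from the mean of brain, heart and kidney was -1.16 in the marmoset, where both livers lay below every other somatic library, and 2.10 in the rat, where both livers lay above every other one. The difference between the species was not tested, and the tables were normalized separately.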

How the results depend on the processing

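Of 135 calls of members in a comparison, 94 held under every alternative; of 1719 values recomputed for them none changed sign and 123 were no longer called, 99 of these without 1 library, 14 with upper-quartile scaling, 7 without the filter, 2 without the variance trend and 1 with a pseudocount of 0.1. With the animal as a replicate block every call was kept and the members called numbered 12, 12, 5, 13 and 14 in marmoset brain, heart, kidney, liver and kidney with liver (12, 9, 5, 12 and 13 without it) and 26, 18, 9, 19 and 19 in the rat (25, 15, 7, 18 and 19). Leaving out 1 library gave 5 to 13, 7 to 9, 2 to 6, 9 to 14 and 11 to 15 members in the marmoset and 16 to 26, 11 to 16, 6 to 8, 16 to 19 and 16 to 21 in the rat. Over all genes it gave 1820 to 6003, 2283 to 3488, 1116 to 2778, 2731 to 4566 and 3242 to 5326 calls in the marmoset and 3862 to 6454, 3491 to 4747, 2381 to 3021, 4041 to 5443 and 4071 to 5261 in the rat. A pseudocount of 0.1, which counts changes near 0 more, gave 13 members in rat kidney (7 with 1), 9 in rat testis (3), 4 in rat ovary (1) and 1 between the rat sexes (0), the last being Nr2f6. Over all genes it gave 4037 in rat kidney (3152), 3017 in rat testis (2220), 1084 in marmoset testis (686), 273 in marmoset ovary (110), 272 in rat ovary (104), 744 between the marmoset sexes (408, and 229 with upper-quartile scaling) and 49 between the rat sexes (16). At 5 FPKM in both species the same highest tissue was found for 10 of 17 members (58.8%) and 64.5% of all genes. Since depth is unknown, how far it limits the low values cannot be stated here.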

Other observations

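Further marmoset receptors carry no symbol in the deposited table. By Ensembl identifier 18 autosomal entries matched a receptor name in the name table supplied beside the files. They were not counted among the members, and their choice followed from that match alone.

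In marmoset liver, NR0B2 (SHP, a repressor in the bile acid feedback loop) was at 77.6 and 224 FPKM in the female and the male, and at 0.56 FPKM or less in the other 6 somatic libraries (log2 difference 6.85 ± 0.42 SE, limma adjusted p = 0.00015). Marmoset heart held 0 and 0.56 FPKM of it. That is unlike the rat, in which heart and liver overlapped, although the difference was not tested. NR1I2 (PXR) was at 97.2 and 152 FPKM in marmoset liver and 0.412 FPKM or less elsewhere in the somatic libraries (6.66 ± 0.23, limma adjusted p = 2.3e-05). Marmoset kidney, at 0.238 and 0.412 FPKM, did not show the second level that rat kidney did for Nr1i2.

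VDR was at 23.7 and 28.8 FPKM in female and male marmoset kidney (3.62 ± 0.31, limma adjusted p = 0.00068) and at 8.42 and 3.69 FPKM in liver, where the rat had 0.0390 and 0.0405 FPKM. RXRG was at 26.2 and 27.1 FPKM in marmoset heart (2.89 ± 0.38, limma adjusted p = 0.0026) and, unlike in the rat, only 3.49 and 7.99 FPKM in liver. NR2E1 was again a brain receptor, at 4.78 and 8.81 FPKM (2.90 ± 0.21, limma adjusted p = 0.00011). In the gonads, PPARG was at 25.6 FPKM in marmoset ovary, ESR2 at 2.87 FPKM and PGR at 1.91 FPKM in ovary, and NR6A1 at 5.31 FPKM in testis.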
